A study of Mus musculus with 7 samples.

Results

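The 10 genes described here encode the TGF-beta ligands Tgfb1, Tgfb2 and Tgfb3, the latent TGF-beta binding protein Ltbp1, the receptors Tgfbr1 and Tgfbr2, the signal transducers Smad2 and Smad3, the inhibitory Smad7, and myostatin (Mstn). They were chosen by name, as core components of this pathway, from the 31531 genes of the table, and all 10 passed the filter on low values. Mstn passed it only through the WT libraries. RNA came from skeletal muscle fibers of fetuses at embryonic day 17.5. The 4 WT fetuses were wild type, and the 3 dyW fetuses were dyW/dyW, that is, homozygous for a disrupted Lama2 gene, which encodes the laminin alpha chain of the muscle basement membrane. Each library came from a different mouse. The fibers were released from the back (epaxial) muscles with dispase and collagenase and held back on a cell strainer, so other cells of the tissue could remain with them.

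TGF-beta is secreted in a latent form that binds to the matrix through proteins such as LTBP1. Once freed, it assembles the type II receptor TGFBR2 with the type I receptor TGFBR1, which phosphorylates SMAD2 and SMAD3, and SMAD7 limits the signal at the receptor. Myostatin, a relative that is made mainly by skeletal muscle and restrains its growth, signals through activin type II receptors to the same Smads.

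The libraries differed in ways that touch every value below. A normalized count is the number of reads on a gene divided by 1 size factor per library, and between 470804 and 2220813 reads fell on genes in the WT libraries, against 3663905 to 18297106 in the dyW libraries. A single read was therefore worth 2.05 to 5.33 normalized counts in WT and 0.0974 to 0.488 in dyW, and depth and genotype cannot be told apart. Lama2 itself stood at 90.6 to 110.6 normalized counts in WT, at 4.29 in dyW1 and 6.07 in dyW2, but at 139.7 in the library labelled dyW3, which goes against its label. dyW1 held little myofiber RNA: the summed level of 9 myofiber genes was 54.1 there, with Ckm, Myh3, Myh8, Tnnc2 and Des at 0 and Ttn at 31.9, against 2458 to 67855 in WT, 7103 in dyW2 and 4201 in dyW3. WT1 stood apart by cartilage genes, whose summed level took 17.3% of its normalized counts. Reads in WT also lay on genes that muscle is not known to use. Of 1207 odorant and vomeronasal receptor genes, 963 to 1187 had a read in each WT library, against 193 in dyW1, 117 in dyW2 and 681 in dyW3, although the WT libraries were shallower. The source of these reads was not tested.

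**Figure D1:**
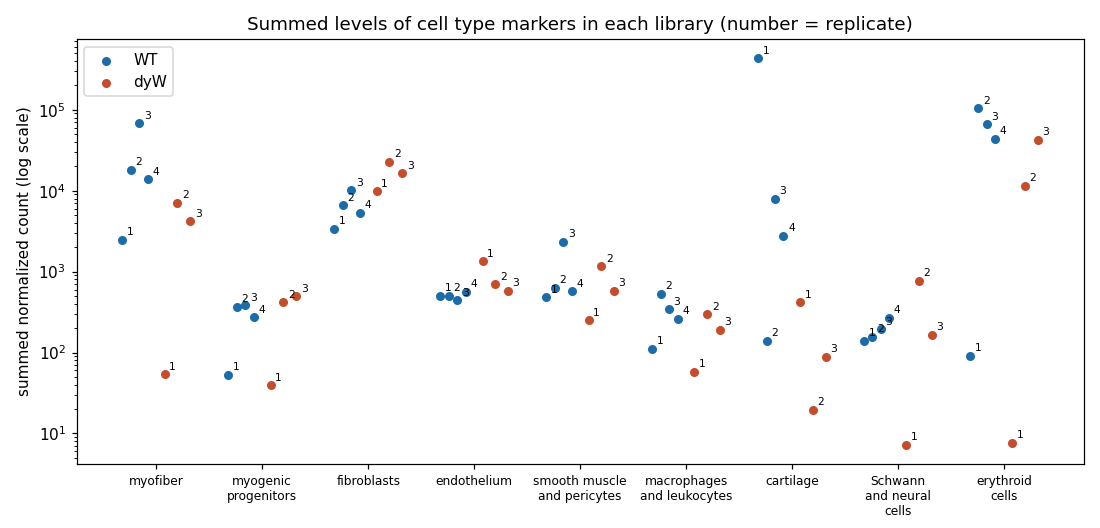
Summed normalized counts (log scale) of 9 lists of cell type markers, with 1 point per library and its replicate number beside it. The myofiber sum of dyW1 (54.1) lies far below those of the other libraries, the cartilage sum of WT1 (433621) far above, and the endothelial sums of the dyW libraries (580 to 1343) lie above those of WT (441 to 566).

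Groups were compared with limma on log2(normalized count + 1) over 25791 genes. A called gene had an adjusted P-value under 0.01 and differed by over 1.5 on the log2 scale. Of the 10 genes, 1 was called lower in dyW (Mstn), where 18.7% of all genes tested were called lower, and 0 were called higher, where 0.0659% of all genes were. At an unadjusted P-value under 0.05, limma gave 1 lower and 1 higher (41.5% and 2.81% of all genes), and limma voom on the recovered reads called 0 in either direction, with 20.6% of all genes called lower and 0.264% higher. With an adjusted P-value under 0.05, Tgfbr1 was the 1 gene that was higher (1.0% of all genes), and Mstn remained the 1 that was lower (29.6%). The median log2 fold change of the 10 genes was −0.18, against −1.99 for all tested genes, and 8 of the 10 lay above that median. The shift of all genes moved with abundance: their median was 0.20 for the 6111 genes with a mean of at least 50 normalized counts and −2.58 for the 19680 below. Of the members, 7 belonged to the first class, where their median was −0.06 and 2 of the 7 lay above that of the class. They thus did not stand above the genes of that class. The classes use the mean over all 7 libraries, so a gene can reach 50 through dyW alone. Tgfb2 (mean 27.4 in WT and 109.9 in dyW) and Smad7 (29.8 and 82.7) did so, and the classes are therefore partly sorted by the outcome. The shift also depended on the scaling and the background: the median of all genes was −1.24 when each library was brought to 1 common total, 0.06 under quantile normalization and 0.30 with the level of the odorant and vomeronasal receptor genes subtracted. That level, their median reads per kb, was 0 in dyW1 and dyW2, so the subtraction lowered values only in WT and dyW3. In such bulk samples, fewer cells of a type and less RNA per cell cannot be told apart.

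The promoters of Mstn and Tgfbr1, the genes that passed a threshold, are shown with each CANNTG in capitals. CANNTG is the E-box, the motif bound by myogenic bHLH factors such as MyoD. They are the 250 bases before the start of the gene from RefSeq (GRCm38.p6), where 7 of the 10 genes had an entry, at chr1:53061390-53061639 (plus strand) for Mstn and chr4:47352972-47353221 (plus strand) for Tgfbr1.
Mstn: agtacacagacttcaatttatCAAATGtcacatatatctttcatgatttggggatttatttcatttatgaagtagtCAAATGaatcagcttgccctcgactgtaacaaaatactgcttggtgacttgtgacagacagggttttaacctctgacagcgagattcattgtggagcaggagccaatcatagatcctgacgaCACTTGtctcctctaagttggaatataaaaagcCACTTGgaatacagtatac
Tgfbr1: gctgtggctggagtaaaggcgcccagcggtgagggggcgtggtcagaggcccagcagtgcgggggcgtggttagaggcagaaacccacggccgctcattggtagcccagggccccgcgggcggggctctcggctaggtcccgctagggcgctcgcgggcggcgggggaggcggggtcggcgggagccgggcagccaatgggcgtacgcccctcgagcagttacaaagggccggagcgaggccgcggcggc

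The Mstn window held 4 CANNTG, which start 229, 174, 52 and 19 bases before the gene start, and a TATAAA at 29 bases. The motif reads the same on both strands in this form, and its matches did not overlap the TATAAA. At least 1 CANNTG was found in 66.2% of 32851 promoters of this length and at least 4 in 3.84%, and TATAAA on the plus strand of the gene in 7.59%. The Tgfbr1 window held 0 CANNTG, and its GC content was 74.8%, against 38.4% for Mstn and a median of 52.4% over all promoters. A further RefSeq start of Tgfbr1, at chr4:47385966-47386215, held 1 CANNTG. These matches describe the letters in the windows, not binding.

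Among the ligands, Tgfb1, the main form in the immune system and in fibrosis (ENSMUSG00000002603, GRCm39 chromosome 7, 25386390 to 25404506), was measured at 53.3, 78.2, 14.4 and 53.5 normalized counts in WT1 to WT4. In the dyW libraries it was at 82.9, 0 and 0.488 in replicates 1 to 3, from 851, 0 and 1 reads; a count of 0 allows up to 3 reads, or 0.379 normalized counts in dyW2. The highest and the lowest of the 7 values were both dyW libraries, and the groups overlapped. The log2 fold change was −3.12 (SE 1.49; adjusted P-value 0.141 in limma), and the exact two-sided permutation test over the 35 ways to divide the libraries gave P = 0.514. Without dyW1, the library low in myofiber RNA, Tgfb1 was called lower, with a log2 fold change of −5.16 (SE 0.867; adjusted P-value 0.00853 in limma). In that comparison 7.76% of all genes were called lower and 0.0111% higher. With WT1 left out as well, Tgfb1 was at −5.05 with an adjusted P-value of 0.0171.

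Tgfb2, a ligand with roles in heart and skeletal development (ENSMUSG00000039239, chromosome 1, 186354985 to 186438294), lay within a narrow range in WT, at 26.7, 27.0, 24.6 and 31.5 normalized counts from 5 to 12 reads each. It stood at 213 in dyW1, 107 in dyW2 and 9.28 in the library labelled dyW3. Hence dyW1 and dyW2 lay above every WT library, as was so for 5.99% of all tested genes, and dyW3 below. The fit gave a log2 fold change of 1.13 (SE 1.01; adjusted P-value 0.418 in limma; exact permutation P = 0.286). Without dyW3 it was 2.43 (SE 0.606; adjusted P-value 0.0127 in limma), short of the threshold for a call, whereas without dyW1 it was 0.24.

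Tgfb3, a ligand of palate and tendon development (ENSMUSG00000021253, chromosome 12, 86102756 to 86126301), was found at 48.0, 5.39, 47.2 and 18.9 normalized counts in WT and at 44.9, 21.5 and 41.5 in dyW. All 3 dyW values lay inside the WT range. Its log2 fold change was 0.59 (SE 0.871; adjusted P-value 0.631 in limma; exact permutation P = 0.8), and turned to −0.03 without WT2, the library with 2 reads of the gene.

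The make-up of the ligand RNA within a library does not depend on the size factor. Per kb of exon, Tgfb2 made up 17.8%, 20.8%, 24.9% and 26.2% of the summed Tgfb1, Tgfb2 and Tgfb3 level in WT1 to WT4, and 57.7%, 80.6% and 15.5% in dyW1 to dyW3. Tgfb1 gave the largest share in WT1, WT2 and WT4, with 43.8%, 74.2% and 54.9%, and Tgfb3 in WT3 with 57.2%. In dyW the leading ligand was Tgfb2 in dyW1 and dyW2, but Tgfb3 in dyW3, with 83.5%. The WT shares rest on 24 to 42 reads per library over the 3 genes, against 105 to 3497 in dyW.

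Ltbp1, which anchors latent TGF-beta to the matrix (ENSMUSG00000001870, chromosome 17, 75312519 to 75699507), was at 74.6, 86.3, 100.51 and 100.7 normalized counts in WT and at 162, 92.5 and 69.3 in dyW. The dyW values lay on both sides of the WT range. The log2 fold change of 0.17 (SE 0.554) had an adjusted P-value of 0.836 in limma, and the exact permutation test gave P = 0.686.

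**Figure D2:**
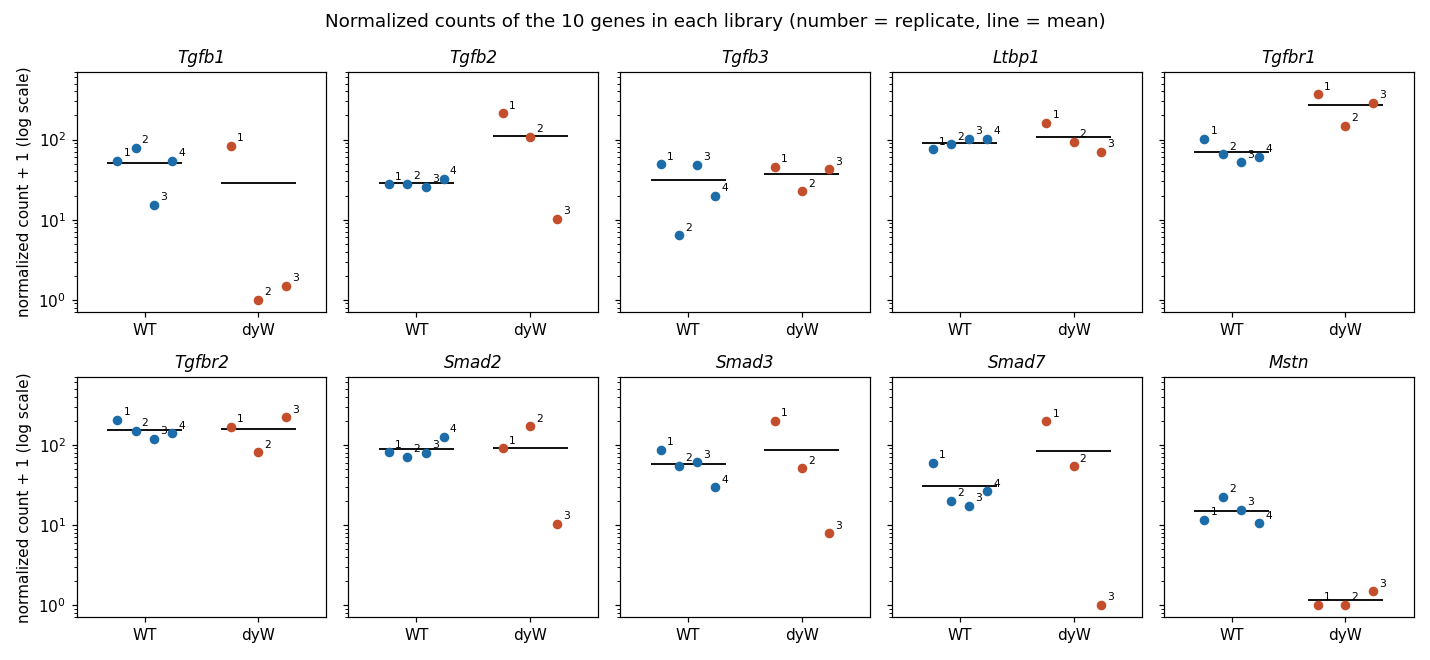
Normalized count + 1 (log scale) of the 10 genes in the 4 WT and 3 dyW libraries, with the replicate number beside each point and a line at the group mean. Tgfbr1 is higher in each dyW library than in any WT library and Mstn lower, and the groups overlap for the other 8 genes.

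Tgfbr1, the type I receptor kinase (ENSMUSG00000007613, chromosome 4, 47353134 to 47414931), was at 101.3, 64.7, 51.3 and 59.8 normalized counts in WT, from 19 to 25 reads per library. The dyW libraries held 366, 149 and 287, from 3757, 1176 and 588 reads. Every dyW library lay above every WT library, as was the case for 3.28% of all tested genes. The mean rose from 69.3 ± 22.1 (SD, n = 4) to 267 ± 110 (SD, n = 3), a 3.86-fold difference. On the log2 scale the fit gave 1.89 (SE 0.573; adjusted P-value 0.0344 in limma), and the exact permutation P = 0.0571 is the smallest that 4 against 3 libraries allow. The gene was not called at 0.01. It stayed positive in all 17 alternatives, from 1.47 to 3.23, and was past an adjusted P-value of 0.05 with a log2 fold change over 1.5 in 6 of them. Without dyW3 it was 1.79 (adjusted P-value 0.059 in limma), without dyW1 1.61 (0.0907), and without WT1 and dyW1 1.81 (0.0639). The endothelial marker sums were 441 to 566 in WT and 580 to 1343 in dyW. Those of the fibroblast markers were 3407 to 10148 and 9797 to 22932, although single genes of both lists went either way. The part of these cell types in the Tgfbr1 values was not tested.

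Tgfbr2, the type II receptor that binds the ligand (ENSMUSG00000032440, chromosome 9, 115913361 to 116004800), was at 203, 148, 117 and 138 normalized counts in WT and at 166, 79.4 and 219 in dyW. Both the lowest and the highest library were dyW. Its log2 fold change was −0.06 (SE 0.563; adjusted P-value 0.944 in limma; exact permutation P = 0.971), and its sign turned at 1 common total per library, to 1.08.

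The ratio of the receptors within a library is also free of the size factor. It was examined after the values were seen, together with the ratio of Smad3 to Smad2, and is given with no test. Per kb of exon, Tgfbr1 stood at 0.664, 0.579, 0.582 and 0.573 of the Tgfbr2 level in WT1 to WT4. In dyW1 to dyW3 the ratio was 2.93, 2.49 and 1.74. Tgfbr2 was thus the more abundant receptor RNA in each WT library and Tgfbr1 in each dyW library, including the library labelled dyW3. The geometric means were 0.599 in WT and 2.33 in dyW, a 3.90-fold difference, which was 1.96 on the log2 scale and lay between 1.80 and 2.17 with each library left out in turn. When the level per kb of the odorant and vomeronasal receptor genes was subtracted from both genes, the ratios were 0.303 to 0.606 in WT and 1.76 to 2.93 in dyW. Taking the same amount per kb from both genes can only lower a ratio under 1 and raise or keep one over 1. That level was 0 in dyW1 and dyW2, whose ratios did not change. The wider difference is therefore no support for the result.

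Smad2, 1 of the 2 Smads that the TGF-beta receptor phosphorylates (ENSMUSG00000024563), was at 80.0, 70.1, 77.9 and 126 normalized counts in WT. In dyW it was at 89.1, 169 and 9.28. The means were close, at 88.5 ± 25.3 (SD, n = 4) in WT and at 89.2 ± 80.0 (SD, n = 3) in dyW, and the spread within dyW exceeded that within WT. The fit gave a log2 fold change of −0.69 (SE 0.944; adjusted P-value 0.604 in limma; exact permutation P = 1).

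Smad3, the partner that binds DNA directly (ENSMUSG00000032402, chromosome 9, 63554049 to 63665476), was at 85.3, 53.9, 59.5 and 28.3 normalized counts in WT and at 197, 49.8 and 6.84 in dyW. The fitted log2 fold change was −0.33 (SE 1.05; adjusted P-value 0.833 in limma; exact permutation P = 0.8), although the dyW mean of 84.5 was above the WT mean of 56.8. Relative to Smad2 per kb, Smad3 ranged from 0.437 to 2.07 in WT and from 0.572 to 4.29 in dyW, with no separation of the groups.

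Smad7, the feedback inhibitor that TGF-beta itself induces (ENSMUSG00000025880), was at 58.6, 18.9, 16.4 and 25.2 normalized counts in WT, from 7 to 11 reads per library. It was at 195 in dyW1, 52.6 in dyW2 and 0 in the library labelled dyW3, which allows up to 1.47 normalized counts. The dyW mean of 82.7 ± 101.1 (SD, n = 3) was above that of WT, 29.8 ± 19.6 (SD, n = 4), but the fitted log2 fold change was −0.31 (SE 1.597; adjusted P-value 0.898 in limma; exact permutation P = 0.514). Without dyW3 it was 1.92 (SE 0.806; adjusted P-value 0.0895 in limma).

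The low values of dyW3 recurred across the signal transducers. Smad2, Smad3 and Smad7 were each lower in dyW3 than in the other 6 libraries, as were Tgfb2 and Ltbp1, whereas Tgfbr1, Tgfbr2 and Tgfb3 were not. In dyW1, on the other hand, Tgfb1, Tgfb2, Ltbp1, Tgfbr1, Smad3 and Smad7 had the highest value of all 7 libraries. The shares of all tested genes that were lowest in dyW3 or highest in dyW1 were not counted, so neither pattern can be called particular to these genes. The fold changes without dyW3 were 0.51 for Smad2 and 0.90 for Smad3, against −1.52 and −1.43 at the lowest when another library was left out.

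Mstn (ENSMUSG00000026100, chromosome 1, 53100799 to 53107240) was called lower in dyW, but from very few reads. It had 10.7, 21.6, 14.4 and 9.44 normalized counts in WT, from 2, 8, 7 and 3 reads, and 0, 0 and 0.488 in dyW, from 0, 0 and 1 read. Its mean was 14.0 in WT and 0.163 in dyW, so it passed the filter on low values through WT alone. Every dyW library lay below every WT library, which was so for 31.5% of all tested genes. The log2 fold change was −3.65 (SE 0.653; adjusted P-value 0.00446 in limma), and the exact permutation P = 0.0571 is the smallest possible. The WT mean was 86.1-fold that of dyW. With the reads of each group pooled and scaled by the size factors, 20 reads in WT against 1 in dyW made a 297-fold ratio. Its 95% interval, from 47.4 to 12289, covers counting error only. The interval treats PCR copies as independent molecules.

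No excess of WT reads of Mstn over genes of unrelated function was detectable. From the median of the odorant and vomeronasal receptor genes and its own exon length, 18.2 reads were predicted for Mstn in the 4 WT libraries, and 20 were found, with a 95% counting interval from 12.2 to 30.9. That level was 0 in dyW1 and dyW2. Once it was subtracted in the other libraries, the log2 fold change of Mstn was −1.50 (adjusted P-value 0.272 in limma). Under quantile normalization it was −0.25 (adjusted P-value 0.902 in limma). It was −3.55 without dyW1, with an adjusted P-value of 0.0144, and −3.55 without dyW2, with 0.0223. Mstn is expressed by muscle fibers, and the myofiber sum was 54.1 in dyW1, 7103 in dyW2 and 4201 in dyW3. The dyW sums were all below those of WT2, WT3 and WT4 (13750 to 67855), and those of dyW2 and dyW3 were above WT1 (2458). In WT3, Acta1 alone gave 52989 of the sum. Myh3 went against the list, at 220 in dyW2 against 21.3 to 75.9 in WT, and had a higher dyW mean. The other genes of the list had lower dyW means. The part of fiber content in the result was not tested.

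The other genes lay at varying levels relative to the receptor genes in WT. The ratio of found to predicted reads had a WT median of 3.19 for Tgfbr2, 2.11 for Smad3, 2.05 for Tgfb1, 1.92 for Smad2, 1.85 for Tgfbr1, 1.84 for Ltbp1, 1.56 for Tgfb3, 1.18 for Mstn, 0.976 for Tgfb2 and 0.934 for Smad7. It was under 2 for 7 of the 10 genes, and for 78.5% of 25622 tested genes with an exon length. Summed over the 4 WT libraries, the predicted reads lay inside the 95% counting interval of the reads found for Tgfb2 (37 found, 42.1 predicted), Tgfb3 (40 and 35.1), Smad7 (34 and 31.9) and Mstn (20 and 18.2), so a WT level beyond that of the receptor genes was not detectable in these sums. For the other 6 genes the predicted reads lay below the interval, from Smad2 with 119 found and 75.7 predicted to Tgfbr2 with 194 and 59.1. The libraries differed: Smad7 had 3.67 times the predicted reads in WT1, and Tgfb3 2.73 times in WT1 and 2.50 times in WT3.

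**Figure D3:**
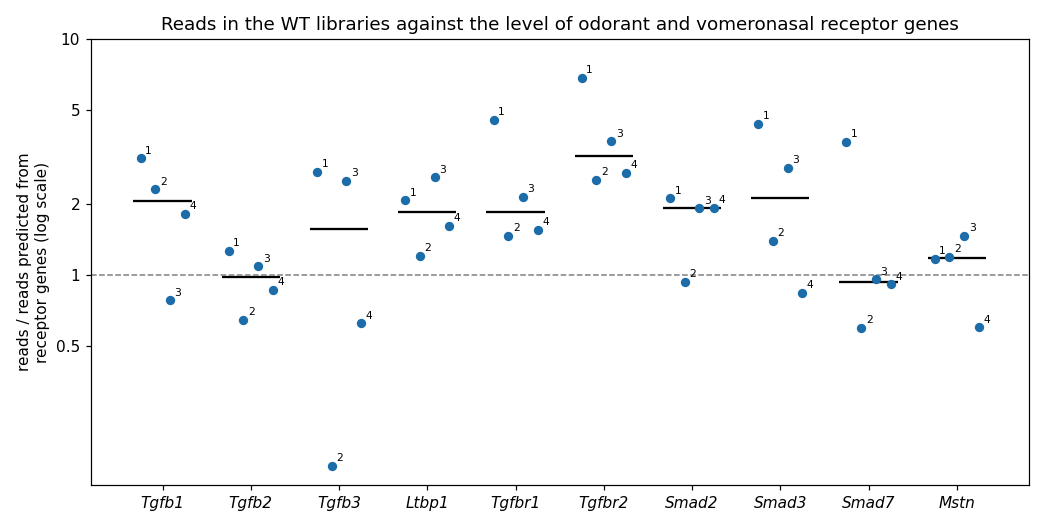
Reads of each gene in the 4 WT libraries over the reads predicted from odorant and vomeronasal receptor genes of the same exon length (log scale; numbers are replicates, lines are medians, the dashed line marks a ratio of 1). Tgfbr2 has the highest median (3.19), and the medians of Tgfb2, Smad7 and Mstn lie around 1.

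Per kb of exon, Tgfbr2 had the highest mean in WT, at 17.2 ± 4.15 normalized counts per kb (SD, n = 4). It was followed by Tgfbr1 with 10.5, Tgfb1 with 9.81, Smad3 with 9.80, Ltbp1 with 8.43, Smad2 with 7.86, Smad7 with 6.27, Tgfb3 with 5.73, Mstn with 5.17 and Tgfb2 with 4.38. Only the step from Tgfbr2 to Tgfbr1 exceeded the larger SD of the neighbours, and even there the libraries overlapped. In dyW the order began with Tgfbr1 at 40.4 ± 16.6 (SD, n = 3), ahead of Tgfbr2 with 17.6, Tgfb2 with 17.6, Smad7 with 17.4, Smad3 with 14.6 and Ltbp1 with 10.04. Smad2 with 7.93, Tgfb3 with 6.90, Tgfb1 with 5.47 and Mstn with 0.0601 came last. Here the step from Tgfbr1 to Tgfbr2 alone was larger than the SD of the neighbours. Without dyW3, Tgfbr1 stayed first with 38.9, and Smad7 with 26.1, Tgfb2 with 25.6 and Smad3 with 21.3 passed Tgfbr2 with 13.9. At 1 common total per library, the dyW level of Tgfbr1 was 77.3 and that of Tgfbr2 32.9, against 9.37 and 15.1 in WT.

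**Figure D4:**
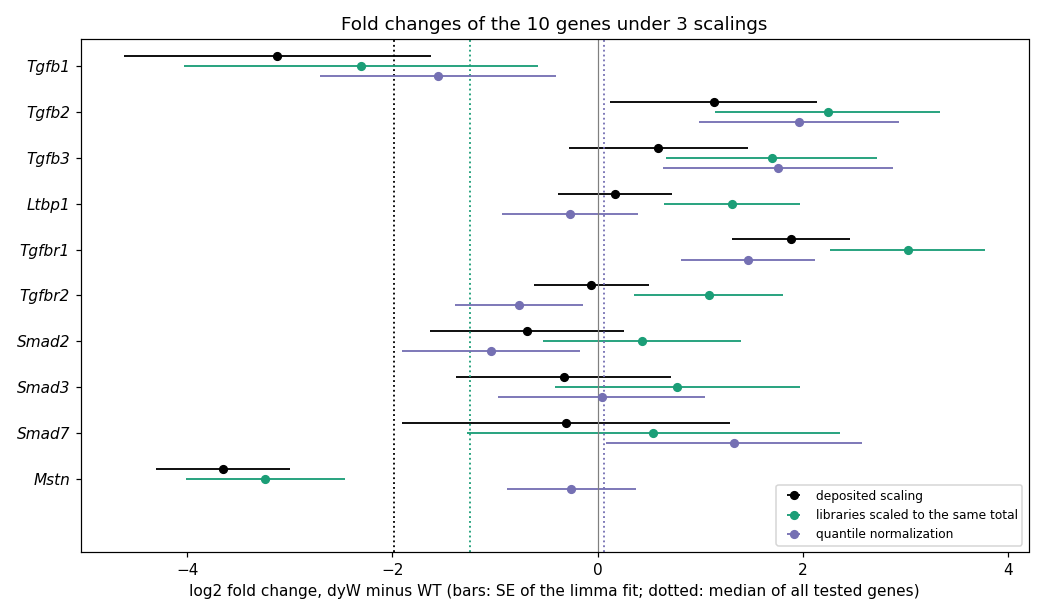
log2 fold changes (dyW minus WT) of the 10 genes with bars of 1 SE of the limma fit, under the deposited scaling (black), at 1 common total per library (green) and under quantile normalization (purple); dotted lines mark the median of all tested genes under each (−1.99, −1.24 and 0.06). Tgfb2, Tgfb3 and Tgfbr1 are positive and Tgfb1 and Mstn negative under all 3, whereas Ltbp1, Tgfbr2, Smad2, Smad3 and Smad7 change sign.

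Among well-measured genes, those with a mean of at least 50 normalized counts, the profile nearest to Tgfbr1 over the 7 libraries was that of the RNA helicase gene Ddx17, with a root mean square difference of 0.119 in log2 values centred on each gene's mean. Next came Tgfb2 with Lmo4 at 0.160, Tgfbr2 with Polb at 0.165 and Ltbp1 with Chd6 at 0.204. Smad3 was nearest to Kdm1a (0.301), Smad7 to Phf13 (0.305), Smad2 to Spon1 (0.322), Tgfb3 to P4ha1 (0.467), Tgfb1 to Atg2a (0.537) and Mstn to Thsd4 (0.676). The candidates numbered 6110 or 6111, and a small difference over 7 libraries of unequal depth is a description only.

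A list of 77 further genes of the pathway put these values in context. Of them 72 were tested, and 4 were called lower and 0 higher, where 18.7% and 0.0659% of all genes were. Their median log2 fold change was 0.19, against −1.99 for all genes. The 42 with a mean of at least 50 had a median of 1.07, against 0.20 for all genes of that class, and the 30 below had −1.33, against −2.58. These classes depend in part on the dyW values themselves. At an unadjusted P-value under 0.05, limma gave 9 lower and 8 higher (41.5% and 2.81% of all genes), and voom called 2 lower and 1 higher (20.6% and 0.264%). With an adjusted P-value under 0.05, 7 were lower and 3 higher, where 29.6% and 1.0% of all genes were. This balance depended on the scaling and the libraries. At 1 common total per library, 3 were lower and 13 higher (20.7% and 4.85% of all genes), and without dyW3 9 were lower and 8 higher (41.4% and 1.47%). Quantile normalization gave 0 and 0 (0.318% and 0.0659%), as did the replicate block (0.00775% and 0.00%), and with the receptor level subtracted 0 were lower and 1 higher (0.0898% and 0.226%).

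The genes called lower were Acvr1c (a type I receptor for Nodal and activins), Nodal (an embryonic patterning ligand), Nog (noggin, a BMP antagonist) and Wfikkn2 (a secreted antagonist that binds myostatin). Acvr1c fell from 46.1 ± 23.3 (SD, n = 4) to 2.73 ± 4.0 normalized counts (SD, n = 3; log2 fold change −4.09; adjusted P-value 0.00893 in limma). Wfikkn2 had 4, 10, 3 and 4 reads in WT and 0 in each dyW library (adjusted P-value 0.00449), and Nog had 2, 3, 8 and 1 reads in WT and 0 in each dyW library (0.00726). Nodal had 2, 9, 3 and 4 reads in WT and 3, 0 and 0 in dyW (0.00508). All of these rest on WT reads as scarce as those of Mstn, apart from the 7 to 24 reads of Acvr1c. Each of these genes passed the filter on low values only through WT. With the receptor level subtracted, the log2 fold changes were −0.87 for Acvr1c, −0.73 for Wfikkn2, −1.25 for Nodal and −1.52 for Nog, with adjusted P-values of 0.433 to 0.719 in limma. Quantile normalization gave −2.34, −0.68, −0.05 and −0.08 in the same order.

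At the looser threshold, the latent binding proteins Ltbp2 and Ltbp4 were lower in dyW, with log2 fold changes of −4.0 (adjusted P-value 0.0133 in limma) and −2.80 (0.011), where Ltbp1 had 0.17. With the receptor level subtracted, Ltbp2 was at −0.89 (0.798) and Ltbp4 at −2.32 (0.143), and under quantile normalization they were at −1.82 (0.46) and −2.74 (0.12). Ltbp4 was measured best, at 110.6 ± 36.2 normalized counts in WT (SD, n = 4) and 15.9 ± 8.71 in dyW (SD, n = 3). For both Ltbp2 and Ltbp4 every dyW library was below every WT library, as was so for 31.5% of all tested genes. Wfikkn1, a close relative of Wfikkn2, had a log2 fold change of −3.33 (0.0339), which was −2.33 with the receptor level subtracted and −0.95 under quantile normalization. Of the 14 latency and activation genes 2 were lower and 0 higher at this threshold (29.6% and 1.0% of all genes), and Fbn1 (fibrillin-1), the most abundant of them, had a log2 fold change of 1.19 (0.21).

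Genes higher in dyW at the looser threshold were the co-repressor Tgif1, the collagen gene Col1a2 and Lox, the enzyme that cross-links collagen. Tgif1 stood at 5.33, 37.8, 43.1 and 31.5 normalized counts in WT and 299, 154 and 85.0 in dyW (log2 fold change 2.71; adjusted P-value 0.0407 in limma). Col1a2 rose from 736, 1850, 2581 and 1655 to 12046, 5971 and 4104 (2.10; 0.0157), and Lox from 15.99, 99.8, 82.1 and 85.0 to 1735, 539 and 217 (3.32; 0.0207). For all 3 genes every dyW library was above every WT library, as for 11 of the 72 tested genes of the list and 3.28% of all tested genes. Every dyW library was below every WT library for 7 of the list and 31.5% of all tested genes. None of the 3 passed this threshold without dyW1, the library low in myofiber RNA, which had the highest level of each. Tgif1 passed it only when dyW3 was the library left out, with adjusted P-values of 0.0537 to 0.11 in limma when it was any other, and it had 0.057 with a pseudocount of 0.1. Without dyW1 the log2 fold changes were 2.25 for Tgif1, 1.67 for Col1a2 and 2.54 for Lox, with adjusted P-values of 0.11, 0.0658 and 0.0643 in limma, and Fbn1 was the 1 gene of the list that was higher (1.97; 0.0295), where 1.09% of all genes were, and 11 genes of the list were lower, where 31.2% were. With WT1 also left out, 3 genes were higher, Col3a1, Fbn1 and Postn, where 0.809% of all genes were, and 9 were lower, where 30.8% were. The summed level of 8 fibroblast markers, which include Col1a1 and Col3a1, was 3407 to 10148 in WT and 9797 to 22932 in dyW, and that of 6 endothelial markers 441 to 566 and 580 to 1343. The lists did not move as one. Osr1 of the fibroblast list was lower in every dyW library than in any WT library, as were 31.5% of all tested genes. Twist2 had a lower dyW mean, and so had Pecam1 and Cldn5 of the endothelial list. The part of these cell types in the result was not tested.

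The roles differed in abundance, which moves with the fold change over all genes. Abundance is the mean over all libraries, so the dyW values take part in it. A mean of at least 50 was reached by 11 of the 12 intracellular regulators and 12 of the 13 responsive genes, but by 2 of the 7 secreted antagonists and 0 of the 10 other ligands. In that class 9 of the 11 regulators, 9 of the 12 responsive genes and both antagonists lay above the class median of 0.20, and among the genes below it 2 of 5 antagonists lay above −2.58. The medians by role were 1.04 for the intracellular regulators, 1.07 for the 5 other Smads, 0.63 for the responsive genes, 0.08 for the 11 other receptors, −0.91 for the 10 other ligands, −1.33 for the 14 latency and activation genes and −2.04 for the antagonists. Col3a1, the most abundant of the responsive genes beside Col1a2, had a log2 fold change of 0.43 (adjusted P-value 0.823 in limma). It was at 11721 and 8082 normalized counts in dyW2 and dyW3 but at 232 in dyW1, and its log2 fold change was 2.22 without dyW1 (0.0652) and 1.61 without WT1 and dyW1 (0.019). Among the receptors, Bmpr1a and Bmpr2, type I and type II receptors for BMPs, had 1.43 (0.0731) and 1.79 (0.0798), and among the Smads, Smad1 and Smad5, which transduce BMP signals, had 1.13 (0.196) and 1.07 (0.327).

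The remaining abundant genes of each role were not called either. The log2 fold changes were 1.06 for Bmp1, a protease that frees latent ligands (adjusted P-value 0.228 in limma), 1.76 for the co-repressor Skil (0.325) and 0.35 for the coactivator Crebbp (0.717). They were −0.55 for Bmp4 (0.649), 0.89 for Bmp5 (0.366), 0.66 for the activin and myostatin antagonist Fst (0.663) and 1.29 for Dcn, the proteoglycan decorin (0.51). Single libraries moved several of these values. Without dyW1, Skil was at 0.16, Crebbp at −0.16, Fst at 2.01 and Dcn at 2.93. Without dyW3, Skil was at 3.15 (adjusted P-value 0.0466 in limma), Fst at −0.40 and Bmp4 at 0.22.

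**Figure D5:**
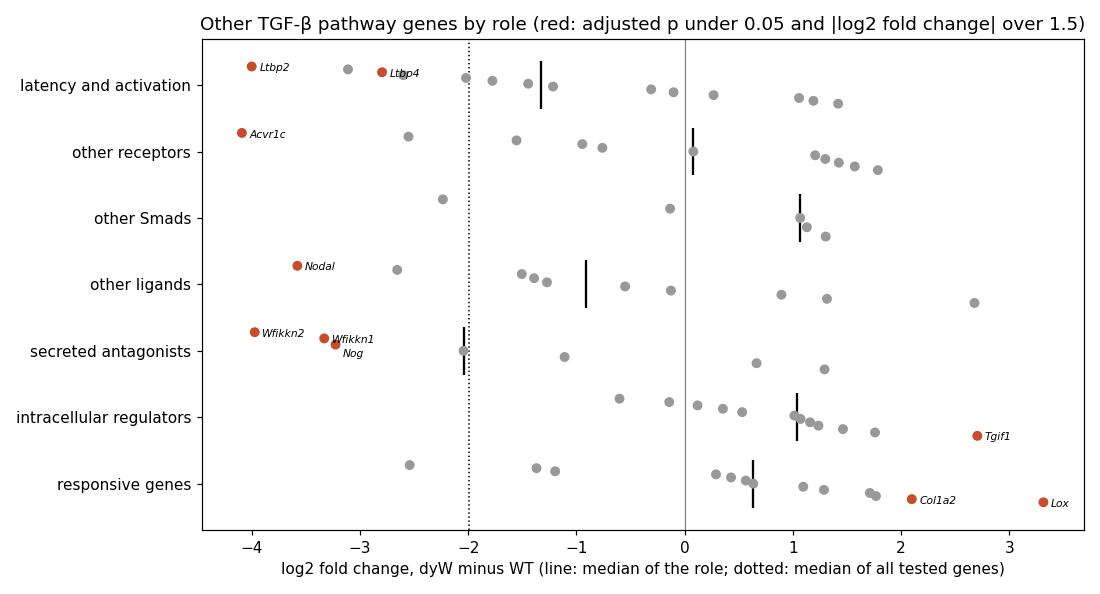
log2 fold changes (dyW minus WT) of the 72 tested genes of the pathway list, by role, with a line at the median of each role and a dotted line at the median of all tested genes (−1.99). Red points are the 7 lower and 3 higher genes past the looser threshold (adjusted P-value under 0.05, difference over 1.5 on the log2 scale).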

How the data were processed

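RNA of 7 libraries (4 WT and 3 dyW, 1 mouse each, grouped by the genotype label) had been made into cDNA by SMART-seq2 without molecular identifiers, tagmented with Nextera XT and sequenced on a NextSeq. Per the study's methods and the labels, the authors used Cutadapt for trimming, RNA STAR for alignment to GRCm39 and FeatureCounts for unique reads per gene, and deposited these counts divided by DESeq2 size factors; versions, annotation release and strand setting are not given in the sources used here, so overlapping and antisense genes cannot be told apart (genes on the other strand overlap Tgfb2, Tgfb3, Ltbp1, Tgfbr1 and Tgfbr2). A further deposited table, with the authors' own fold changes and P-values, was not used.

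Each library's values were whole multiples of 1 step (100% within 0.01 of a read), from which reads were recovered. The comparison used limma 3.58.1 (R 4.3.3), with lmFit, a trended eBayes and Benjamini-Hochberg adjustment, on log2(normalized count + 1), a scale that understates changes of low genes. It covered every gene whose normalized count averaged 5 or more over all libraries, so a gene could pass through 1 group alone. Single genes had exact two-sided permutation tests (Python 3.11.15, scipy 1.17.1, numpy 2.4.6, pandas 2.3.3), and plots were drawn with matplotlib 3.10.9. Exon lengths (99.2% of genes) and coordinates came from GENCODE on GRCm39. In data simulated for this comparison over 25791 genes, 167, 114 and 5 of 200 genes changed 16-fold were recovered at dispersions of 0.1, 0.3 and 1, with 0 false calls in each. The true dispersion is not known. An earlier form of the simulation, at 0.3 alone, missed the share of recovered genes required of it, after which the lower dispersion was added and that requirement replaced by ones on sign, fold and false calls.

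Members and lists were chosen with earlier results of these data known. Genes named are the 10 members, pathway genes past an adjusted P-value of 0.05 with an absolute log2 fold change over 1.5, the 2 most abundant of each role, Lama2, marker lists by their sum and the nearest profile of each member. Single marker genes and Postn were named beyond this rule. Alternatives were the pseudocount, the filter, the scaling, the replicate block, single libraries left out and the adjusted P-value of 0.05. Voom, the subtraction of the receptor level, the split by abundance, leaving out WT1 with dyW1, the ratios within a library and the choice of promoters came after seeing the data.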

Additional observations from a re-analysis of the deposited data

Results flagged for a closer look

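In the WT group of 4, Fbn1 in WT3 stood at 244 normalized counts, where the next highest library had 155, a gap of 0.93 of the whole range. Skil in WT1 stood at 160, next to 47.2, a gap of 0.865 of the range. Both are high values of a single library, marked because the gap was beyond Dixon's 95% critical value for 4 samples, and 34 groups were examined. Chance marks about 1 in 20 such groups.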

How the results depend on the processing

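The count of members called lower was 1 and fell to 0 with a pseudocount of 10, a mean of at least 50 (where Mstn, Tgfb1 and Tgfb3 were not tested), the same total, quantile normalization, the replicate block, voom, the receptor level subtracted, and WT1 and dyW1 left out together. In these settings, voom aside, the calls of the whole table went too: 0.00% of all genes were called lower, 0.00388% with the block and 0.00775% under quantile normalization, so the loss is not particular to the members. It ranged from 0 to 1 with single libraries left out: 0 without WT2, WT4 or dyW2, where 0.00% of all genes were called lower, and without dyW1 the 1 gene was Tgfb1, not Mstn. Members called higher were 0 throughout, and 1 at an adjusted P-value under 0.05. Pathway genes called lower, 4, were 0 under the same settings, with the same shares of all genes, except voom (2, against 20.6%), 7 at 0.05 (against 29.6%), and 0 to 5 with a library left out (0 without WT2, WT4 or dyW2, 1 without dyW1, where 7.76% of all genes were called lower, 2 without WT3, where 20.4% were, and 5 without dyW3, where 25.8% were). Those called higher, 0, were 1 under voom (Col1a2) and 3 at 0.05, and 0 to 1 with a library left out (Lox, without dyW3, where 0.0809% of all genes were called higher). The log2 difference in the Tgfbr1 to Tgfbr2 ratio, 1.96, was 2.55 with the receptor level subtracted and 1.80 to 2.17 with a library left out. That subtraction could only widen the difference, so the value of 2.55 is no support for it. Mstn was past the threshold in 5 of 16 alternatives. The causes of these changes were not tested.

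Signs turned for members that were not called. With the same total, Tgfbr2 was 1.08, Smad2 0.43, Smad3 0.78 and Smad7 0.54. Under voom they were 1.19, 1.03, 1.44 and 1.71, and with the receptor level subtracted 0.44, 1.19, 1.34 and 3.09. Quantile normalization gave −0.27 for Ltbp1, 0.039 for Smad3 and 1.33 for Smad7, and a pseudocount of 10 gave 0.45 for Smad7. Without WT1, Tgfbr2 was 0.09 and Smad7 0.07, and without WT2 Tgfb3 was −0.032. Without dyW1, Ltbp1 was −0.16, and −0.25 with WT1 left out too. Without dyW2, Tgfbr2 was 0.36, and without dyW3, Smad2 was 0.51, Smad3 0.90 and Smad7 1.92. Over single libraries left out, the ranges were −0.032 to 0.95 for Tgfb3, −0.16 to 0.44 for Ltbp1, −0.37 to 0.36 for Tgfbr2, −1.52 to 0.51 for Smad2, −1.43 to 0.90 for Smad3 and −1.89 to 1.92 for Smad7. Tgfb1, Tgfb2, Tgfbr1 and Mstn kept their sign in all of these.

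Same-numbered libraries did not deviate together (correlations of 0.147, −0.05 and −0.09), so the numbers were not taken as pairs. With the replicate block, Mstn was −3.80 with an adjusted P-value of 0.0614 in limma, and 1 of all 25791 genes was called. The planned count tests on recovered reads (edgeR and DESeq2) were not run: the table's decimal commas kept its unit from being verified as those tests require, although whole reads were recovered, and voom was run in their place. WT depth, at 2 to 57 reads per member and library, limits every comparison.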
